A study of Mus musculus with 6 samples.

Results

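The genes described here are 10 chaperones and stress regulators of the endoplasmic reticulum (ER) and the cytosol, given as a list of names with earlier results of these data known: Hspa5, Hsp90b1, Calr, Pdia3, Xbp1, Atf4, Ddit3, Hspa8, Hsp90aa1 and Hsp90ab1. They are 10 of the 50508 gene symbols listed, and all 10 were among the 19504 symbols above 0 in at least 1 library, which is the set that was tested. The study tested a CRISPR activator aimed at Kcna1, a voltage-gated potassium channel gene, as a means of lowering neuronal excitability. Primary neurons from newborn C57Bl/6J pups were transduced with lentivirus the day after plating, and RNA was read from the 3′ end of polyadenylated transcripts (QuantSeq). The 3 Kcna1-dCas9A libraries (label sgKcna1) came from cells given a guide to the Kcna1 promoter, and the 3 Ctrl-dCas9A libraries (label sgLacZ) from cells given a guide to bacterial LacZ.

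Both groups carried the same activator, dCas9-VP160, a Cas9 without nuclease activity fused to a viral transactivating domain. The Ef1alpha promoter that drove it is not restricted to neurons, so no group here was free of the activator or of lentivirus. The labels give the tissue region as hippocampus, whereas the study's methods describe cortical cultures. Pan-neuronal markers were present in every library, and so were the hippocampal marker list and Zbtb20, listed at 1250 to 1516 in all 6 libraries. The study's methods speak in general of independent repetitions of its experiments, but the labels do not say whether the 3 libraries of a group came from separate cultures. The p-values therefore measure only the spread between these libraries, which may be technical.

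The ER folds secreted and membrane proteins with lumenal chaperones, and its sensors respond to unfolded protein through the unfolded protein response. The sensor PERK (Eif2ak3) phosphorylates eIF2alpha, which favours translation of Atf4 and then transcription of Ddit3 (CHOP), while IRE1 (Ern1) splices Xbp1 mRNA and ATF6 is cleaved to an active factor. Spliced XBP1 and cleaved ATF6 raise transcription of ER chaperone genes. In the cytosol, heat shock factor 1 (Hsf1) governs HSP70 and HSP90 genes, and neurons also express HSP70 and HSP90 proteins constitutively. Reads of the 3′ end cannot tell spliced from unspliced Xbp1 mRNA, and the levels of these mRNAs do not measure sensor activity.

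The values are whole numbers that sum to between 999047 and 999717 in each library, so they were taken as values scaled to a common total and rounded, and the depth of sequencing is unknown. The sources used here do not say whether they were divided by transcript length, so listed values of different genes may not compare in level. Kcna1 itself was at 16 in each Ctrl-dCas9A library, against 68, 47 and 65 with its guide, a log2 fold change of 1.83 ± 0.16 (SE, limma on log2(value + 1), Benjamini-Hochberg adjusted p = 0.034). One control library stood apart: over genes with a mean of at least 10, Ctrl-dCas9A replicate 3 had a mean Pearson correlation of 0.957 with the other controls and 0.967 with the Kcna1-dCas9A libraries. Replicates 1 and 2 had 0.967 and 0.970 with the other controls and 0.908 and 0.917 with the Kcna1-dCas9A libraries. Each result on the members is therefore given with and without that library. Since it was singled out for lying nearer to the Kcna1-dCas9A libraries, leaving it out tends to widen the differences by construction, and the values without it describe its weight and are not independent support. A single transcript, Gm42418, took 15.3% to 20.2% of each library's total.

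The ER stress response element (CCAAT, then 9 bases of any kind, then CCACG) is the binding site through which ATF6, with NF-Y on its CCAAT part, acts on ER chaperone genes, and it divides the members into those that hold it near their start and those that do not. It was searched on both strands of the promoter window, from 250 bases before to 50 bases after the start of each gene, in RefSeq sequence of GRCm38.p6. Of the 10 members, 7 had a window, and Hspa8, Hsp90aa1 and Hsp90ab1 had none. The element was in 3 of those 7 windows and in 39 of all 32851 windows (0.119%). The 4 matches are shown with their flanks because they lie at members listed higher (Hspa5 and Calr) and lower (Hsp90b1) in Kcna1-dCas9A, although none of these differences passed the test. Capitals mark the element, and each line runs 5′ to 3′ on the strand of the gene.
Hspa5, chr2:34772020-34772049, plus strand: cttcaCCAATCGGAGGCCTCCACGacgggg
Calr, chr8:84847069-84847098, minus strand: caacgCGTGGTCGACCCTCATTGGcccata
Hsp90b1, chr10:86705632-86705661, minus strand: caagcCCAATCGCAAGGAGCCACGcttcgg
Hsp90b1, chr10:86705527-86705556, minus strand: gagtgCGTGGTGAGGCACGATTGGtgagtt

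In Hspa5 the element lies at positions -65 to -47 from the start, in Calr at -162 to -144, and in Hsp90b1 at -212 to -194 and at -107 to -89. The Calr element and the one of Hsp90b1 nearer to the start read on the strand opposite to the gene. The windows of Pdia3, Xbp1, Atf4 and Ddit3 held no match to these letters. The ERSE-II motif (ATTGG, 1 base of any kind, then CCACG), the core of the XBP1 site (TGACGTGG), the C/EBP-ATF site bound by ATF4 (TGATGNAAT) and the heat shock element (GAA, TTC and GAA with 2 bases of any kind between them) were in 0 of the 7 windows and in 0.0365%, 0.676%, 0.965% and 0.603% of all windows. The CCAAT box alone, which is part of the element above, was in 6 of the 7 and in 37.4% of all windows. A match of letters describes the window and is not a measurement of binding.

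Of the ER lumenal chaperones, Hspa5 and Calr were listed higher in the Kcna1-dCas9A libraries and Hsp90b1 and Pdia3 lower, and only the difference of Pdia3 passed the test. Hspa5 encodes BiP, the lumenal HSP70 that holds the sensors inactive. It was listed at 622, 652 and 849 in the controls, against 903, 968 and 871 with the Kcna1 guide. All 3 Kcna1-dCas9A libraries were above all 3 controls, with Ctrl-dCas9A replicate 3 just under the lowest of them. The means were 708 ± 123 and 914 ± 49.4 (SD, n = 3 each), a log2 fold change of 0.38 ± 0.13 that missed the threshold (SE, limma, adjusted p = 0.139). Without Ctrl-dCas9A replicate 3 it was 0.52 ± 0.06 (limma, adjusted p = 0.021).

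Calr encodes calreticulin, a calcium-binding lectin chaperone that holds newly made glycoproteins. It was listed at 672, 703 and 962 in the controls, against 1029, 1112 and 1065 with the Kcna1 guide. There was no overlap, and Ctrl-dCas9A replicate 3 was again nearest to the other group. The means of 779 ± 159 and 1069 ± 41.6 (SD, n = 3 each) gave a log2 fold change of 0.47 ± 0.14 (SE, limma, adjusted p = 0.107). Without that library it was 0.64 ± 0.06 (limma, adjusted p = 0.017). Over the 6 libraries the log2 values of Calr and Hspa5 had a Pearson correlation of 0.990, given as a description of points that share libraries and groups.

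Hsp90b1 encodes GRP94, the HSP90 of the ER lumen. It was listed at 238, 213 and 254 in the controls, against 204, 183 and 210 with the Kcna1 guide. The Kcna1-dCas9A libraries were all below the controls, and Ctrl-dCas9A replicate 3, which was nearest to the Kcna1-dCas9A libraries for Hspa5 and Calr, was here the farthest from them. The log2 fold change was -0.24 ± 0.10 (SE, limma, adjusted p = 0.222) and -0.18 ± 0.09 without that library (limma, adjusted p = 0.291). Hsp90b1 was the only member whose adjusted p was above the threshold in all 15 alternative settings.

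Pdia3 encodes ERp57, the disulfide isomerase that works with calreticulin and calnexin on glycoproteins. It was listed at 234, 230 and 190 in the controls, against 127, 125 and 135 with the Kcna1 guide. The groups were well separated, and the spread within the Kcna1-dCas9A group was small. The mean fell from 218 ± 24.3 to 129 ± 5.29 (SD, n = 3 each), a log2 fold change of -0.75 ± 0.11 (SE, limma, adjusted p = 0.049). The call was close to the threshold: the adjusted p was 0.017 without Ctrl-dCas9A replicate 3, and without any other library no member, and no gene of the whole table, was called by limma. In 7 of the 15 alternative settings Pdia3 was called, and its log2 fold change stayed between -0.84 and -0.63 in all of them.

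**Figure D1:**
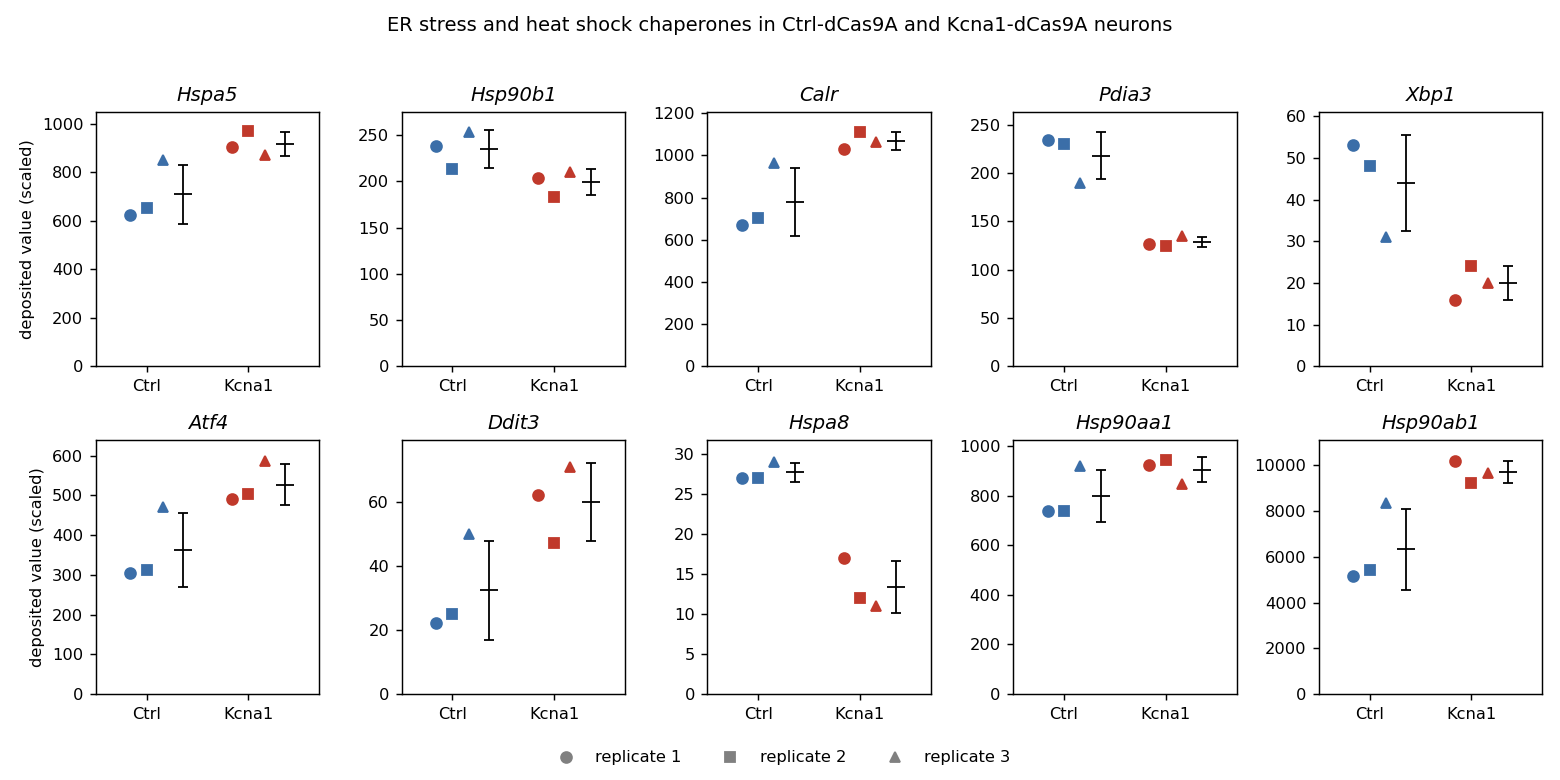
Listed value (scaled to a common total, linear axes starting at 0) of each of the 10 members in the 3 Ctrl-dCas9A and 3 Kcna1-dCas9A libraries, 1 point per library, with the group mean and SD. Hspa5, Calr, Atf4 and Hsp90ab1 have all 3 Kcna1-dCas9A points above the controls and Hsp90b1, Pdia3, Xbp1 and Hspa8 all 3 below, and replicate 3 is the highest control for all members but Pdia3 and Xbp1.

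The transcription factors of the response also differed in direction, Xbp1 being listed lower and Atf4 and Ddit3 higher, and none passed the test over all 6 libraries. Xbp1, the target of IRE1 splicing, was listed at 53, 48 and 31 in the controls, against 16, 24 and 20 with the Kcna1 guide. The groups did not overlap, and Ctrl-dCas9A replicate 3 lay between the other controls and the Kcna1-dCas9A libraries. The log2 fold change was -1.08 ± 0.24 (SE, limma, adjusted p = 0.056), the largest in size of the 10, and -1.31 ± 0.19 without that library (limma, adjusted p = 0.026).

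Atf4, the activator translated when eIF2alpha is phosphorylated, was listed at 305, 311 and 471 in the controls, against 492, 503 and 588 with the Kcna1 guide. There was no overlap, with Ctrl-dCas9A replicate 3 close under the lowest Kcna1-dCas9A library. Its log2 fold change was 0.57 ± 0.18 (SE, limma, adjusted p = 0.117) and 0.77 ± 0.09 without that library (limma, adjusted p = 0.021).

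Ddit3, the CHOP factor that Atf4 activates, was listed at 22, 25 and 50 in the controls, against 62, 47 and 71 with the Kcna1 guide. The groups overlapped, because Ctrl-dCas9A replicate 3 was above Kcna1-dCas9A replicate 2. Its log2 fold change was 0.95 ± 0.31 (SE, limma, adjusted p = 0.129), the largest positive value among the members and also the one with the largest SE. Without that control library it was 1.30 ± 0.20 (limma, adjusted p = 0.030).

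In the cytosol, Hsp90ab1 and Hsp90aa1 were listed higher on average in Kcna1-dCas9A and Hspa8 lower, and none passed the test. Hsp90ab1, the constitutive cytosolic HSP90, was the highest of the members at 5168, 5428 and 8366 in the controls, against 10207, 9233 and 9686 with the Kcna1 guide. No library of one group lay within the other, and most of the spread among the controls came from replicate 3. The means of 6321 ± 1776 and 9709 ± 487 (SD, n = 3 each) differed 1.54-fold, with a log2 fold change of 0.65 ± 0.19 (SE, limma, adjusted p = 0.099). Without Ctrl-dCas9A replicate 3 the log2 fold change was 0.87 ± 0.06 (limma, adjusted p = 0.017).

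Hsp90aa1, the stress-inducible cytosolic HSP90, was listed at 739, 738 and 919 in the controls, against 923, 943 and 848 with the Kcna1 guide. The groups overlapped, since Ctrl-dCas9A replicate 3 was above Kcna1-dCas9A replicate 3. The log2 fold change of 0.19 ± 0.11 had a 95% confidence interval from -0.08 to 0.45 (limma, adjusted p = 0.367). Without that control library it was 0.29 ± 0.06, at the edge of the threshold (limma, adjusted p = 0.0499).

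Hspa8, the constitutive HSC70, was listed at 27, 27 and 29 in the controls, against 17, 12 and 11 with the Kcna1 guide. It was the one member besides Hsp90b1 for which Ctrl-dCas9A replicate 3 was not shifted towards the Kcna1-dCas9A libraries. The log2 fold change was -1.02 ± 0.18 (SE, limma, adjusted p = 0.053) and -0.99 ± 0.21 without that library (limma, adjusted p = 0.047). These values are low for an HSP70 that most cells express at a high level, and Hspa8 has near-identical copies in the genome. Its last 500 bases, the part a 3′ library reads, matched 6 other places in NCBIM37 over at least 75 bases at 95% identity or more, the best at 99.4%.

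One of those places is the annotated pseudogene Gm15459, which was listed above Hspa8 itself, at 103, 94 and 89 in the controls, against 92, 99 and 96 with the Kcna1 guide. Reads of the gene and its copy may have been split by the authors' counting, so the value of Hspa8 is uncertain. The sum of Hspa8 and its annotated pseudogenes was 130, 121 and 118 in the controls, against 109, 111 and 107 with the Kcna1 guide. The groups of sums did not overlap, but their log2 ratio was -0.17, against -1.02 for the gene alone. Of the other members, Hsp90aa1 had 3 such places, Hsp90ab1 and Hsp90b1 had 1 each, and the other 6 had 0.

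Across the 10 members, 1 was called by limma after adjustment over all tested genes, Pdia3, which fell. Over all 19504 genes the share called was 1.16%, with 0.349% higher and 0.81% lower. At an unadjusted p under 0.05 there were 5 members higher and 3 lower, against 23.2% of all genes in either direction and 42.4% of the 5951 genes with a mean at or above that of the lowest member. The groups did not overlap for 8 of the 10, with 4 higher and 4 lower. That was so for 22.2% of all genes (8.98% higher and 13.3% lower), and for 43% of genes at the members' levels (18.5% higher and 24.6% lower). The median log2 fold change was 0.28 over the members and -0.02 over all genes. With 3 libraries a group, an exact permutation test of any 1 gene cannot give a two-sided p below 0.1.

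**Figure D2:**
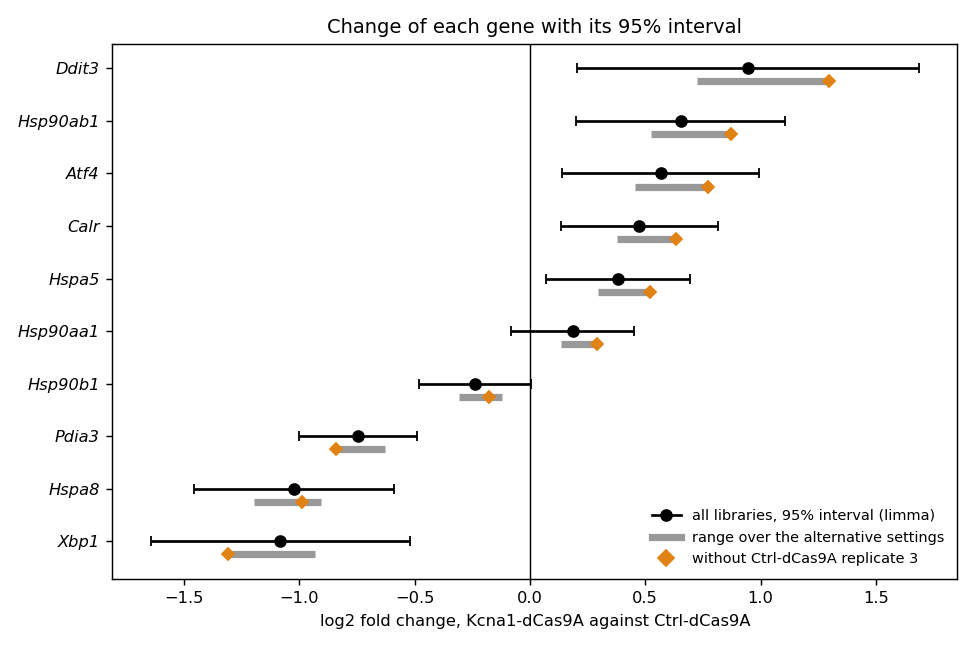
Log2 fold change (Kcna1-dCas9A over Ctrl-dCas9A, on log2(value + 1)) of each member with its 95% confidence interval from limma over all 6 libraries (black), the range over the 15 alternative settings (grey bars) and the value without Ctrl-dCas9A replicate 3 (diamonds). Every member keeps its sign, from -1.08 for Xbp1 to 0.95 for Ddit3 over all libraries, and without that library 6 members are called higher and 3 lower, Hsp90b1 being the exception.

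Without Ctrl-dCas9A replicate 3, limma called 9 members, 6 higher and 3 lower, in a fit where 14.2% of all genes were called. Other scalings called 7 members (median-of-ratios, 4 higher and 3 lower, with 8.81% of all genes), 7 (upper-quartile, 4 higher and 3 lower, with 10.6%) or 6 (omitting Gm42418, 3 higher and 3 lower, with 9.07%). Stricter filters called 3 members (mean of at least 1, all lower, with 11.3% of all genes) or 8 (at least 10 in every library, 5 higher and 3 lower, with 27.6%), and a robust variance model 8 (with 14.8%). A pseudocount of 0.5 and a model without an intensity trend called 0 members (with 0.0513% and 1.03% of all genes). The position of Ctrl-dCas9A replicate 3 can be put as the share of the way from the mean of the other controls to the mean of the Kcna1-dCas9A libraries on the log2 scale. It was 108% for Hsp90aa1, past the Kcna1-dCas9A mean, 81.7% for Ddit3, 79.8% for Hspa5, 79.4% for Atf4, 76.3% for Calr and 75.5% for Hsp90ab1. Among the members that were lower it was 52.3% for Xbp1, 34.0% for Pdia3, -10.1% for Hspa8 and -96.3% for Hsp90b1. Over the 2140 genes that differed by at least 0.5 on the log2 scale the median was 57.6%. Hsp90aa1 and Hsp90b1 differed by less than 0.5 even without this library (0.29 and -0.18), so their percentages rest on a small difference and cannot be set beside that median.

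Ratios of members within a library do not depend on how the library was scaled. The ratio of Calr to Pdia3 was 2.87, 3.06 and 5.06 in Ctrl-dCas9A and 8.10, 8.90 and 7.89 in Kcna1-dCas9A. The ratio of Hspa5 to Hsp90b1, the HSP70 and the HSP90 of the ER lumen, was 2.61, 3.06 and 3.34 against 4.43, 5.29 and 4.15. The ratio of Atf4 to Xbp1 was 5.75, 6.48 and 15.2 against 30.8, 21.0 and 29.4. The ratio of Hsp90ab1 to Hsp90aa1 was 6.99, 7.36 and 9.10 against 11.1, 9.79 and 11.4, and that of Ddit3 to Xbp1 was 0.415, 0.521 and 1.61 against 3.88, 1.96 and 3.55. The pairs mostly set a higher-listed member over a lower-listed one and were chosen with the values known, so the separation of the groups follows in part from that choice, and the ratios carry no test.

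**Figure D3:**
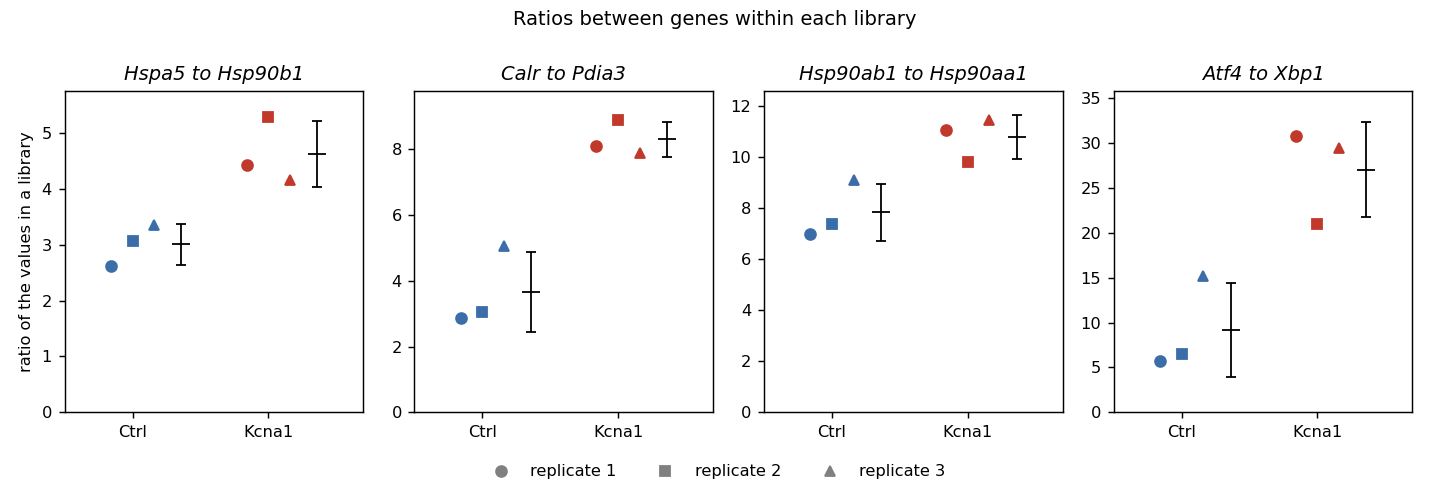
Ratio of the listed values of 4 pairs of members within each library (linear axes from 0), 1 point per library with the group mean and SD. The 3 Kcna1-dCas9A points lie above the 3 controls in every pair. The lowest Kcna1-dCas9A point and the highest control are 4.15 against 3.34 for Hspa5 to Hsp90b1 and 7.89 against 5.06 for Calr to Pdia3. They are 9.79 against 9.10 for Hsp90ab1 to Hsp90aa1 and 21.0 against 15.2 for Atf4 to Xbp1. Ctrl-dCas9A replicate 3 is the highest control in each.

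The 10 members summed to 8080, 8375 and 12121 in Ctrl-dCas9A and to 13980, 13150 and 13505 in Kcna1-dCas9A. Hsp90ab1 made up 64.0% to 69.0% of that sum in the controls and 70.2% to 73.0% in Kcna1-dCas9A. Without it, the other 9 summed to 2912, 2947 and 3755 against 3773, 3917 and 3819, with the highest control almost level with the lowest Kcna1-dCas9A library. In bulk RNA, fewer cells of a type and less RNA per cell cannot be told apart, for these sums and for every value here.

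The rest of the pathways was read from 6 lists holding 154 genes, of which 150 were tested. Of these, 0 were called higher and 4 lower (Erp44, Ganab, Sec62 and Dnajb5), beside 1.16% of all genes called. The split depended on the scaling, with 8 called higher and 22 lower by median-of-ratios scaling and 9 and 22 by upper-quartile scaling. The median log2 fold change of the 150 was -0.22, against 0.28 for the members, and 49 were above 0 and 101 below. The groups did not overlap for 16 genes that were higher and 48 that were lower, together 42.7% of the 150, against 22.2% of all genes and 43% of genes at the members' levels. The share at an unadjusted p under 0.05 was 40.7%, against 23.2% and 42.4%. The lists also hold genes below the members' levels, such as Ern1 and Hsf1, so these shares are not matched in level to the last ones. The same holds for the single lists and the motif genes below. All 4 calls were lost without any 1 library other than Ctrl-dCas9A replicate 3, and without that replicate 10 were called higher and 29 lower, in a fit that called 14.2% of all genes.

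Of 26 further genes of ER folding and the calnexin cycle, 0 were called higher and 2 lower, and their median log2 fold change was -0.28, which was -0.16 with upper-quartile scaling and -0.18 without Ctrl-dCas9A replicate 1. At an unadjusted p under 0.05 there were 1 higher and 10 lower (42.3%), and the groups did not overlap for 3 higher and 11 lower (53.8%). The shares of genes at the members' levels were 42.4% and 43%. Erp44, a thiol protein that retains secretory clients, was listed at 16, 16 and 9 in the controls, against 4, 3 and 4 with the Kcna1 guide. Ganab, a subunit of the glucosidase that trims glycoproteins for calnexin and calreticulin, was listed at 106, 98 and 90 against 67, 58 and 55. Both were lower with no overlap, with log2 fold changes of -1.62 and -0.70, just under the threshold (limma, adjusted p = 0.0496 and 0.0497). With a pseudocount of 0.5 both calls were lost (limma, adjusted p = 0.0508 for each). The values of Erp44 are low. Just above the threshold, with no overlap and all lower, were Sdf2 (log2 fold change -0.88), the disulfide isomerase Pdia6 (-0.58) and the membrane-bound thioredoxin Tmx1 (-0.63). Canx, the membrane-bound homologue of Calr, was listed at 549, 543 and 649 against 623, 654 and 554, and Manf, an ER stress-induced secreted protein, at 51, 55 and 25 against 17, 20 and 16 (both picked after their values were seen). The Canx groups overlapped and the Manf groups did not, and neither was called (limma, adjusted p = 0.661 and 0.0692).

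The sensors were listed at low values. Eif2ak3 (PERK) was listed at 12, 16 and 17 against 10, 14 and 11, and Ern1 (IRE1) at 2, 5 and 4 against 3, 4 and 5, and both overlapped between groups. Atf6 was listed at 14, 16 and 14 against 12, 6 and 10, with no overlap. Their log2 fold changes were -0.34, 0.14 and -0.64 (limma, adjusted p = 0.367, 0.818 and 0.181), and the sign for Ern1 turned when single libraries were left out.

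Among 33 tested genes of the sensors, ER-associated degradation and XBP1 or ATF6 targets, 0 were called higher and 1 lower, with 26 of 33 log2 fold changes below 0 and a median of -0.25. At an unadjusted p under 0.05 there were 2 higher and 13 lower (45.5%), and 48.5% had no overlap, against 42.4% and 43% of genes at the members' levels. Derl3 was listed at 0 in every library. Sec62, a membrane protein of the translocon, was listed at 289, 273 and 244 in the controls, against 183, 175 and 172 with the Kcna1 guide, and fell by 0.60 on the log2 scale (limma, adjusted p = 0.0496). Syvn1, the ubiquitin ligase of ER-associated degradation, was listed at 21, 19 and 10 against 4, 6 and 3, a log2 fold change of -1.70 (limma, adjusted p = 0.055). The translocon-associated Ssr3 (-1.07) and the ATF6 paralogue Atf6b (-0.58) also had no overlap and missed the threshold. Syvn1 and Pdia6, like Hsp90b1, hold the ER stress response element in their promoter window.

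The genes with that element lay on both sides of 0. Of 37 such genes 18 were tested, 8 with log2 fold changes above 0 and 10 below, with a median of -0.20. For the 10 with a mean of at least 10 it was 5 above and 5 below, with a median of -0.08. The groups did not overlap for 4 that were higher (Hspa5, Calr, Spats2l and Zfp57) and 5 that were lower (Hsp90b1, Pdia6, Syvn1, Pan2 and Hnrnpa3). None of the 18 was called by limma, and 3 were higher and 4 lower at an unadjusted p under 0.05. The shares without overlap (50%) and under that p (38.9%) rest on 18 genes and stand beside 43% and 42.4% of genes at the members' levels, and 22.2% and 23.2% of all genes. Of 66 tested genes with the heat shock element 0 were called higher and 3 lower (Hnrnpa2b1, Rps18 and Sec62), with a median of -0.04, in a fit where 1.16% of all genes were called. Their groups did not overlap for 12 that were higher and 8 that were lower (30.3%), and at an unadjusted p under 0.05 there were 10 higher and 9 lower. For the 37 with a mean of at least 10 the median was 0.04, with 20 above 0 and 17 below.

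Of 30 genes of the integrated stress response other than the members, 0 were called in either direction by limma, and the median was -0.22. At an unadjusted p under 0.05 there were 3 higher and 6 lower (30% of the list, against 23.2% of all genes and 42.4% of genes at the members' levels). The list holds genes far below the members' levels, so the last share is not matched to it in level. Mthfd2, a mitochondrial folate enzyme activated by ATF4, was listed at 41, 41 and 44 in the controls, against 61, 59 and 70 with the Kcna1 guide. Slc7a5, a transporter of large neutral amino acids and also an ATF4 target, went the other way at 70, 94 and 72 against 47, 39 and 46. Ddit4, an inhibitor of mTORC1 signalling, was likewise lower at 110, 132 and 107 against 85, 80 and 79. None of these groups overlapped, the log2 fold changes being 0.58, -0.82 and -0.51 (limma, adjusted p = 0.055, 0.053 and 0.056). Trib3, Chac1 and Atf3, commonly used readouts of CHOP and ATF4 activity, were listed at 6 or less in every library (picked after their values were seen).

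Of 30 tested genes of the heat shock factors and the cytosolic HSP70, HSP40, HSP110 and small HSP families, 0 were called higher and 1 lower, with a median of -0.19. There were 4 higher and 9 lower at an unadjusted p under 0.05 (43.3%), and the groups did not overlap for 5 higher and 10 lower (50%). The shares of genes at the members' levels were 42.4% and 43%. Hspa1l and Hspb1 were listed at 0 in every library. Hsf1 was listed at 4, 5 and 4 against 2, 2 and 3, too low to place it firmly (log2 fold change -0.69, limma, adjusted p = 0.149). Dnajb5, an HSP40 cochaperone, was listed at 40, 47 and 30 against 16, 10 and 10 and fell by 1.63 on the log2 scale (limma, adjusted p = 0.049). Dnajb1, the stress-inducible HSP40, was listed at 74, 68 and 75 against 105, 108 and 91, and Dnaja1, which also works with HSC70, at 287, 278 and 277 against 218, 195 and 189. These HSP40 genes thus went in opposite directions, with no overlap in either, at log2 fold changes of 0.48 and -0.48 (limma, adjusted p = 0.056 and 0.053). Dnajc6, the auxilin that recruits HSC70 to clathrin coats, had a log2 fold change of -1.19 (limma, adjusted p = 0.056).

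The 12 tested HSP90 cochaperones were the only one of the 6 lists with a median above 0, at 0.16, and 0 of them were called by limma, with 3 higher and 2 lower at an unadjusted p under 0.05, a share of 41.7% that is near the 42.4% of genes at the members' levels. Stip1 (HOP), which links HSP70 to HSP90, was listed at 132, 159 and 204 in the controls, against 238, 243 and 295 with the Kcna1 guide. St13 (HIP), which stabilises HSC70 in its client-bound state, was listed at 338, 338 and 407 against 434, 426 and 491. Neither overlapped, but both differences missed the threshold (log2 fold changes 0.66 and 0.32, limma, adjusted p = 0.076 and 0.135). Fkbp5, a glucocorticoid-inducible immunophilin, was lower at 24, 18 and 16 against 13, 11 and 9. Aarsd1 was listed at 0 in every library.

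Of the 19 genes of the CCT chaperonin, prefoldin and mitochondrial chaperones, 0 were called by limma, with 2 higher and 6 lower at an unadjusted p under 0.05 (42.1%, near the 42.4% of genes at the members' levels) and a median of -0.26. The subunits of CCT, which folds actin and tubulin, lay on both sides of 0. Cct6a, Cct2 and Cct4 had log2 fold changes of -0.67, -0.63 and -1.03 with no overlap (limma, adjusted p = 0.055, 0.072 and 0.081). Cct4 was the most variable of them, at 125, 127 and 81 against 58, 70 and 36. Of the other subunits, picked after their values were seen, Cct5 was higher with no overlap (0.22) and Cct7 higher with overlap (0.38), while Cct8 (-0.26, no overlap), Tcp1 (-0.25) and Cct3 (-0.11) were lower on average, and none was called by limma.

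**Figure D4:**
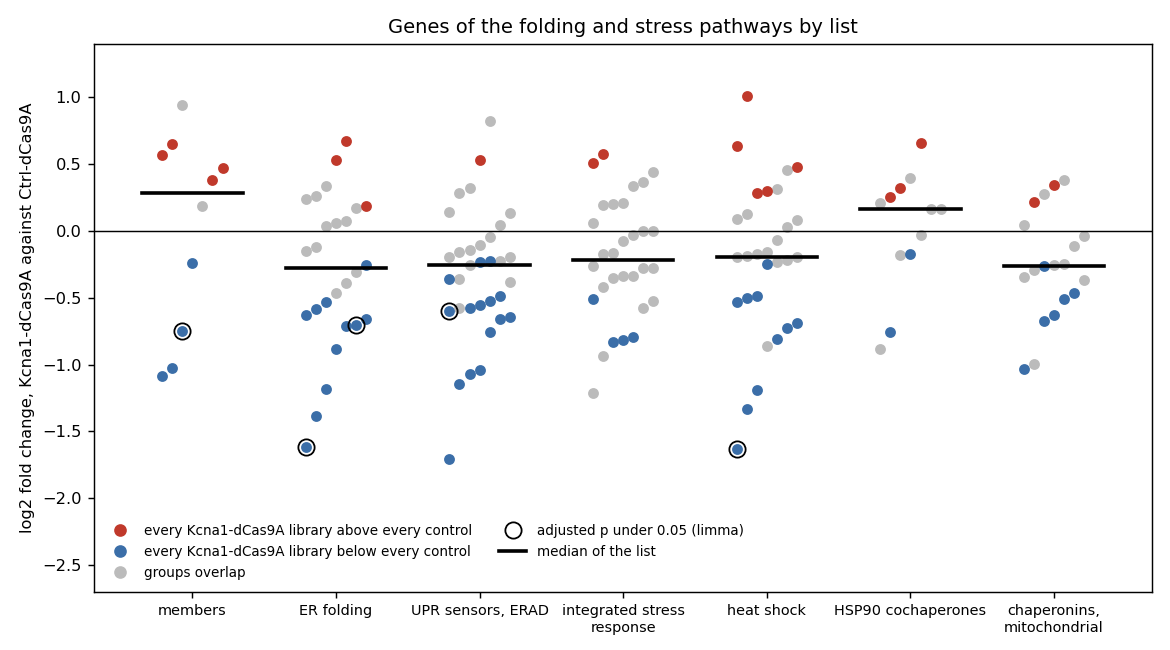
Log2 fold change (Kcna1-dCas9A over Ctrl-dCas9A) of each tested gene in the members and in the 6 pathway lists, 1 point per gene, with the list median as a bar and the genes called by limma ringed. Red and blue points are genes whose groups do not overlap, higher and lower, and grey points are genes whose groups overlap. The median is 0.28 for the members and 0.16 for the HSP90 cochaperones and lies between -0.28 and -0.19 in the other 5 lists, and the 4 called pathway genes are all below 0.

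The genes whose log2 values followed Hspa5 most closely over the 6 libraries, among 3262 with a mean of at least 50, were Atp5k, Nacad, Metap2, Eif3k and Arl4c, with Pearson correlations of 0.996 to 0.998. In all 5, as in Hspa5, Ctrl-dCas9A replicate 3 was the highest control and lay below every Kcna1-dCas9A library. For Hspa8 they were Frmd4a, Ndufb3, Npepps, Naa25 and Top1, at 0.990 to 0.997, and in these Ctrl-dCas9A replicate 3 stayed with the other controls. Ndufb3, a subunit of respiratory complex I, was listed at 151, 141 and 154 against 94, 79 and 66 and fell by 0.91 on the log2 scale (limma, adjusted p = 0.0496). The points of these correlations share the 2 groups and that library, and they carry no test.

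Other measures moved with the groups, and their part in the members' differences was not tested. The 10 astrocyte markers summed to 961 to 1069 in Ctrl-dCas9A and 702 to 718 in Kcna1-dCas9A. Of these 3 were called lower, in a fit where 1.16% of all genes were called. The groups did not overlap for 6 of them, all lower, and overlapped for 4, such as Gfap at 63, 45 and 57 against 46, 48 and 70. The 8 microglia markers summed to 22 to 25 against 53 to 72, with 1 called higher and the defining Tmem119 and P2ry12 at 0. The 8 oligodendrocyte lineage markers summed to 66 to 98 against 40 to 44 (1 called lower, Mog at 0). Mbp went the other way with no overlap, at 3, 3 and 2 against 7, 4 and 7. The 8 dividing cell markers summed to 117 to 120 against 68 to 73. The 8 pan-neuronal markers summed to 6105 to 6983 against 7157 to 8533, with 4 above 0 and 4 below on the log2 scale and a median of 0.01. Tubb3 alone carried that difference, at 1862, 1752 and 2605 against 3855, 3221 and 4591, and the other 7 summed to 4243, 4387 and 4378 against 4205, 3936 and 3942. The sums of the inhibitory and hippocampal lists overlapped between groups and Pvalb was at 0. Excitatory markers summed to 1260 to 1407 against 1197 to 1265. Among them Slc17a7 (33, 29 and 41 against 47, 54 and 57) and Camk2a (88, 93 and 124 against 146, 145 and 175) were higher with no overlap. Neurod6 was lower with no overlap, at 512, 484 and 471 against 388, 361 and 362. Vascular markers summed to 9 to 15 against 4 to 9.

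Base composition moved with the fold change as well. Over the 7185 of 8033 genes with a mean of at least 10 that had a transcript, the log2 fold change had a Spearman correlation of 0.257 with transcript GC content and 0.307 with that of the last 500 bases, across genes, which are not independent replicates. For each member, the genes within 2 percentage points of its own GC content had a median log2 fold change between -0.20 and 0.07. The part of base composition in the members' values was not tested.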

How the data were processed

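The authors deposited 1 table of whole numbers per library. Its values were treated as a score: the deposited numbers sum to nearly the same total in each library (999047 to 999717), so they are not raw counts, and their scaling is not given in the sources used here. The submitters' processing notes name STAR 2.7, featureCounts, DESeq2 and mm10, whereas the study's methods name Bowtie2 and mm9 for cultured neurons, and it was not settled which made these tables. Genes above 0 in at least 1 library were fitted with limma 3.58.1 (R 4.3.3, intensity trend) on log2(value + 1) with group as the only term, Benjamini-Hochberg adjustment over all of them and a threshold of 0.05. A fold change on this scale understates that of low genes. Depth is unknown, so no counting interval is given. Copies of the members were sought with BLAST 2.17.0, and motifs with Python 3.11.15.

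The members and lists were chosen with earlier results of these data known. The genes named are the members, Kcna1, Eif2ak3, Ern1, Atf6 and Hsf1. In each list up to 6 genes of smallest p past the threshold were added or, with fewer than 3 past it, also the 3 of smallest unadjusted p with a mean of at least 10. For Hspa5 and Hspa8 the 5 best correlated genes were added. Genes named for a motif are the ones counted there, picked after their values were seen. The fit was checked on simulated data with independent noise for each gene and library. Those data held no shift shared across genes of a library, so the check does not cover the weight of Ctrl-dCas9A replicate 3. Alternatives were other scalings, a pseudocount of 0.5, stricter filters, other variance models, the replicate number as a block and leaving out each library.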

Additional observations from a re-analysis of the deposited data

How the results depend on the processing

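The numbers of calls depended on the processing, and the cause was not tested. For all genes, members and pathway genes in turn, limma called 226, 1 and 4 as reported. With median-of-ratios scaling the numbers were 1719, 7 and 30, with upper-quartile scaling 2058, 7 and 31, with a pseudocount of 0.5 they were 10, 0 and 0, with a mean value of at least 1 they were 1543, 3 and 33, with at least 10 in every library 1946, 8 and 37, with robust variance 2884, 8 and 44, and without an intensity trend 201, 0 and 0. With scaling that omits Gm42418, an alternative chosen after seeing the data, they were 1768, 6 and 36. Leaving out 1 library gave 0 to 2711, 0 to 9 and 0 to 39, the upper values without Ctrl-dCas9A replicate 3 and 0 without any other. The split of calls into higher and lower also moved, from 68 and 158 as reported to 962 and 757 with median-of-ratios scaling and 1226 and 832 with upper-quartile scaling. The 10 members kept their direction in all 150 combinations of member and alternative, and the list medians kept their sign but not their size, at -0.39 to -0.16 for ER folding, -0.35 to -0.14 for the sensors and degradation, -0.29 to -0.11 for the integrated stress response, -0.21 to -0.09 for heat shock, 0.08 to 0.28 for the HSP90 cochaperones and -0.32 to -0.15 for the chaperonins. The log2 fold change of Ern1, at 0.14 as reported and from -0.15 to 0.35 when 1 library was left out, reversed to -0.15 without Ctrl-dCas9A replicate 1 and to -0.00299 without Kcna1-dCas9A replicate 3. A fit with the replicate block gave 0, 0 and 0 calls. The labels do not say whether the replicate numbers mark a pairing. Same-numbered libraries correlated in their deviations from the group means at 0.0143, 0.114 and 0.154 (mean 0.0941). Different-numbered libraries correlated at -0.156 to 0.0989 (mean -0.0464). Ctrl-dCas9A replicate 1 correlated better with Kcna1-dCas9A replicate 2 than with its own number, and every other library best with its own. These values do not settle whether the libraries were paired. Unknown depth limits the low values, such as those of Hspa8, Ern1 and Hsf1.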
